A study of Mus musculus with 14 samples.

Results

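Amino acid catabolism and urea cycle genes are described here in the livers of 5-week-old male mice with and without miR-122, a microRNA that hepatocytes make in very large amounts. The set holds 38 genes chosen by name, and all 38 were among the 12871 genes that the authors' 5-week results table names. Earlier results of these data were known when this set and the lists of other genes below were chosen. They were grouped into 7 routes: the urea cycle and nitrogen entry, transamination with serine, proline and ornithine, aromatic amino acids, tryptophan, sulfur amino acids, branched chains with propionate, and histidine with glycine and one-carbon units. Total liver RNA was hybridised to 4 arrays, 2 of control and 2 of knockout livers.

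By the sample genotypes, the controls were miR-122loxP/loxP, that is, they carried floxed alleles without a recombinase, although their titles read wild type. The knockouts were miR-122loxP/loxP Alb-Cre by genotype, with Cre driven by the albumin promoter, which is active in hepatocytes. The series' design text instead describes a germ-line deletion at 5 weeks, so which of both models these livers represent could not be settled. The background strain was given as 57/BL6J for all groups, and no treatment was named. The labels do not say whether each sample came from a separate mouse, so the p-values measure the spread between these samples, which may be technical. The series also holds 10 samples at 8 weeks, not analysed here because their probe sets could not be named. The 5-week table has no row for miR-122, and loss of the microRNA was therefore not measured.

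The liver removes surplus amino acids by passing their nitrogen, through transamination and glutamate dehydrogenase, into the urea cycle, and by feeding the carbon skeletons into energy metabolism. Most of these enzymes are typical of hepatocytes, and many sit in mitochondria. The urea cycle, histidine breakdown and serine breakdown are known to be strongest near the portal vein, and defects of single steps cause inherited disorders such as urea cycle disease, tyrosinaemia and methylmalonic acidaemia.

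All values are log2 RMA values, in which array background, between-array scale and probe effects have already been handled by the authors. A difference is the knockout mean minus the control mean, and the words rose and fell are kept for genes whose limma adjusted p (Benjamini-Hochberg over 12871 genes) was under 0.05 in that direction. Levels of different genes are not compared with each other, because each probe set has its own brightness. Array medians over all 35556 probe sets lay between 5.92 and 5.96. Over the table's probe sets the control arrays correlated at 0.982 and the knockout arrays at 0.992, across probe sets, which are not independent replicates. Every member read above 5.97, the median of 42 olfactory receptor probe sets, in all 4 arrays, and the dimmest, Sdsl, came closest at 6.56 to 7.12.

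Knockout livers had lower levels of genes in several breakdown routes, while no tyrosine gene and 1 of 7 sulfur amino acid genes passed. Of the 38 members 12 fell and none rose, where 4.15% of all genes tested were called lower and 10.8% higher. Of all called genes 72.3% were higher, and 61.2% after a further quantile normalization. Under that normalization 13 members fell and none rose, where 760 of all genes were called lower and 1200 higher. The members that fell were Otc and Asl of the urea cycle, Prodh, Kmo and Kynu, Ahcy, the branched-chain and propionate genes Dbt, Ivd and Mut, and Uroc1, Ftcd and Shmt1. They stood at 45.4% (Asl) to 68.3% (Ivd) of their control levels. The median log2 difference was -0.35 over the members and 0.01 over all genes, and 35 of 38 members had a lower mean in the knockout against 48.8% of all genes. At an unadjusted p under 0.05 there were 20 members, where 30.5% of all genes passed in either direction. From the authors' deposited table, whose p-values were adjusted here in the same way, the same 12 members were called lower, where 3.70% of all genes were, and none higher, where 9.67% were.

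The calls were not kept under every setting. When all 35556 probe sets, named or not, entered the fit, no member and no probe set passed (limma, smallest adjusted p 0.0709 among members). In that fit 16 members had an unadjusted p under 0.05, and the share over all probe sets was not counted. With control 1, control 2, knockout 1 or knockout 2 left out, the calls were also lost, and 1 group then held a single array. With a robust prior, chosen after seeing the data, 5, 5, 2 and 0 members were called lower without those arrays, and the members' median was -0.28, -0.46, -0.46 and -0.23.

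**Figure D1:**
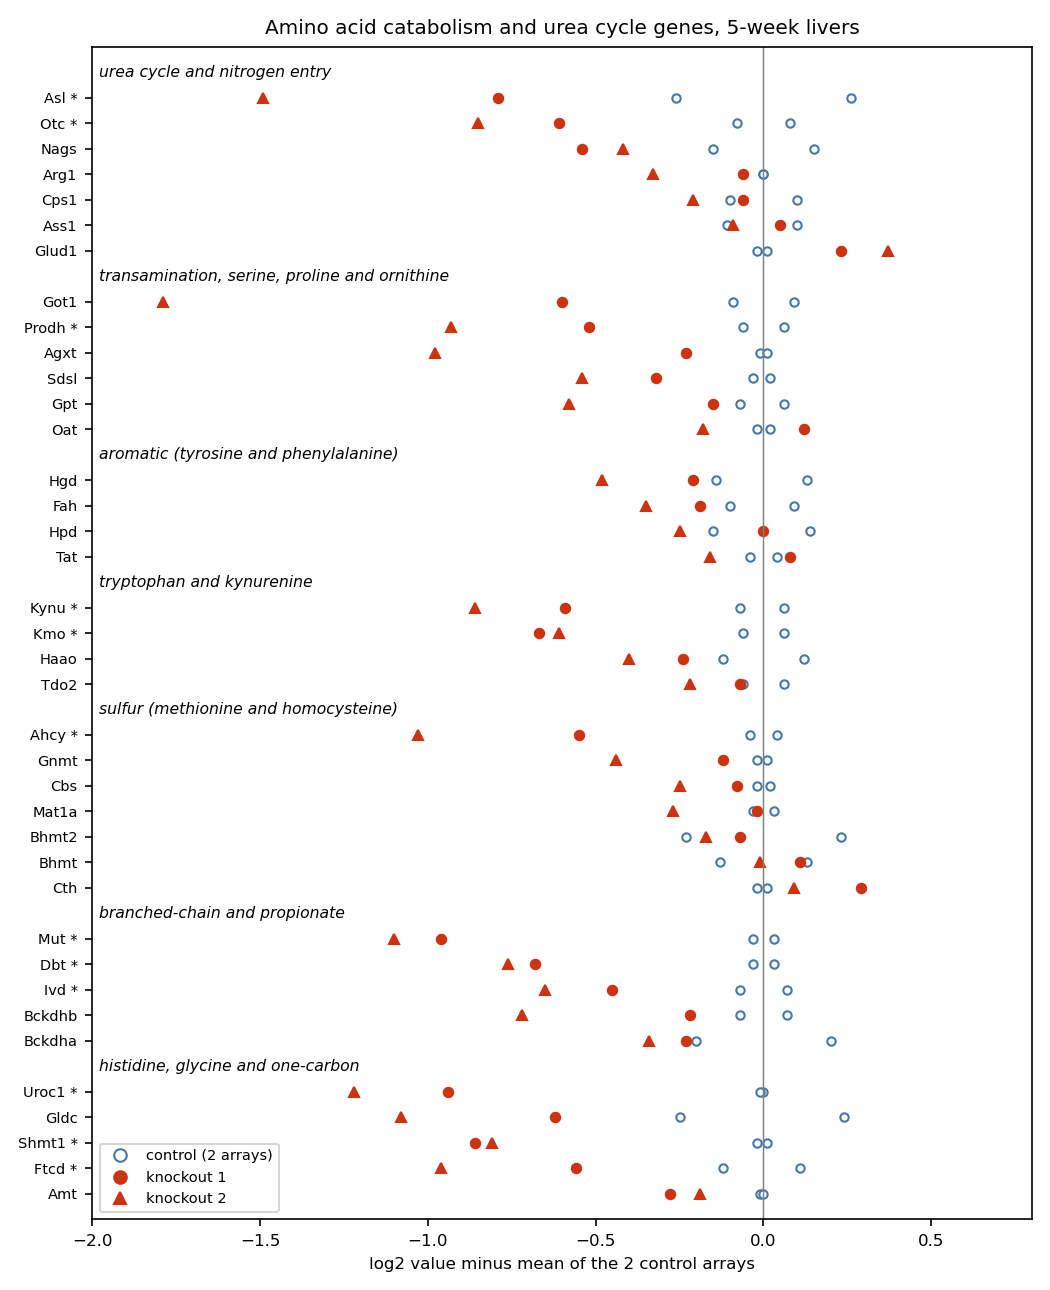
Each row is one of the 38 genes, grouped by route, and the x axis gives its log2 value in each array minus the mean of the 2 control arrays. Open circles are control arrays, filled circles and triangles the knockout arrays, and an asterisk marks the 12 genes that fell (limma, adjusted p under 0.05); both knockout arrays lie left of both control arrays in 28 rows.

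In 28 of the 38 members both knockout arrays read below both control arrays, where this held for 27.0% of all genes. In 2 members, Glud1 and Cth, both knockout arrays read above both control arrays, against 32.1% of all genes, and in the other 8 the groups overlapped. The plot of values by array shows no overlap between the groups for any member of the tryptophan, branched-chain and histidine with glycine routes.

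In bulk liver RNA, fewer hepatocytes and less RNA per hepatocyte cannot be told apart. None of 11 measured hepatocyte markers passed with limma (1 at an unadjusted p under 0.05). Their median difference was -0.02, with the largest in the apolipoprotein genes Apoc3 (-0.37) and Apoa1 (-0.14). All were bright, with control means of 12.28 to 13.68. Members with a control mean of at least 12 had a median difference of -0.14. The summed linear signal of the hepatocyte markers was 98500 and 98100 in the control arrays and 95000 and 96100 in the knockout arrays. Many markers of macrophages, of stellate cells and fibroblasts, and of cholangiocytes rose. Of 13 Kupffer cell and macrophage markers 11 rose, with a median of 0.96, the largest in Lyz2 (1.60) and Mpeg1 (1.54), and their summed signal was 5540 and 6010 in controls and 12600 and 11000 in knockouts. Of 11 markers of stellate cells and fibroblasts 7 rose (Lum by 2.18), with sums of 4700 and 5810 against 7880 and 7990. In that list Des (0.10), Lrat (0.51), Reln (0.40) and Acta2 (-0.24) did not pass. Of 8 measured cholangiocyte markers 6 rose (Spp1 by 3.24), with sums of 1010 and 1100 against 3440 and 3830. Such sums follow the brightest probe sets. Dcn read 11.57 and 11.89 in controls and 12.28 and 12.25 in knockouts. Spp1 read 7.81 and 8.11 in controls and 11.11 and 11.28 in knockouts. The median differences were 0.83 (stellate cells and fibroblasts) and 0.90 (cholangiocytes). The bile duct keratins Krt7 (0.10) and Krt19 (-0.32), which define cholangiocytes, did not pass and read between 6.04 and 7.23. Among 9 sinusoidal endothelial markers only Lyve1 fell (-0.80), with sums of 5620 and 6060 against 5880 and 5850, and among 6 measured lymphocyte markers Ptprc and Ltb rose, with sums of 465 and 469 against 733 and 608. The part of these cells in the members' differences was not tested.

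**Figure D2:**
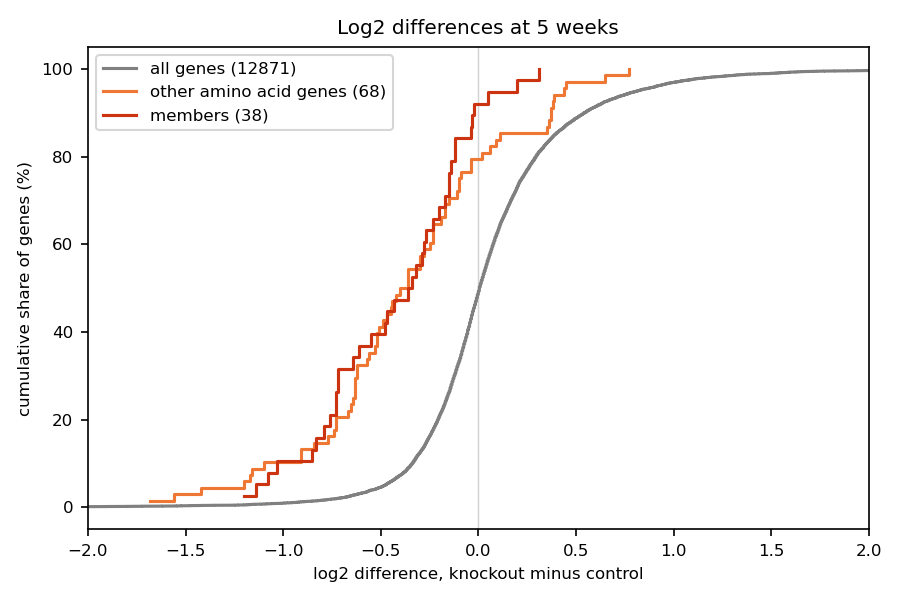
Cumulative share of genes (y axis, percent) by log2 difference between knockout and control (x axis, drawn from -2 to 2) for all 12871 genes, 68 other amino acid genes and the 38 members. The members' curve lies left of that of all genes, with a median of -0.35 against 0.01.

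Within the urea cycle, 2 of the 5 enzymes fell and 3 did not pass. Otc, the mitochondrial ornithine transcarbamylase that joins carbamoyl phosphate to ornithine, read 11.27 and 11.11 in the control arrays and 10.58 and 10.34 in the knockout arrays. The groups did not overlap, and Otc fell by 0.73 (SE 0.13, adjusted p = 0.0177) to 60.3% of control. Asl, the lyase that releases fumarate and yields arginine, read 12.06 and 11.54 in controls and 11.01 and 10.31 in knockouts. It fell by 1.14 (SE 0.27, adjusted p = 0.0393) to 45.4% of control, with a wide spread within both groups. With a robust prior Asl no longer passed (adjusted p = 0.0586).

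Cps1, the carbamoyl phosphate synthetase that commits ammonia to the cycle, read 13.06 and 12.86 in controls and 12.90 and 12.75 in knockouts. The ranges overlapped, and the difference of -0.14 had a 95% interval of -0.44 to 0.17 (adjusted p = 0.516). Ass1, which condenses citrulline with aspartate just before the Asl step, read 12.84 and 12.63 against 12.79 and 12.65. Its difference of -0.02 had an interval of -0.32 to 0.29, so a fall as large as that of Asl lay outside it. Arg1, the arginase that releases urea, read 11.96 in both controls and 11.90 and 11.63 in knockouts, so both knockout arrays lay below both controls, but the difference of -0.20 did not pass (adjusted p = 0.359).

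Genes around the cycle differed in direction. Nags, which makes the activator that Cps1 requires, read 9.32 and 9.02 in controls and 8.63 and 8.75 in knockouts, a difference of -0.48 just outside the threshold (adjusted p = 0.0669). Glud1, glutamate dehydrogenase, which frees ammonia from glutamate, read 11.27 and 11.30 in controls and 11.52 and 11.66 in knockouts. It had the highest difference of the members at 0.31, with separate groups, and did not pass (adjusted p = 0.119). Of 10 other genes of nitrogen handling only Gls2, the liver glutaminase, fell (-1.56, adjusted p = 0.00695), from 10.59 and 10.53 to 9.30 and 8.71. Glul, the pericentral glutamine synthetase, differed by -0.10, and the ornithine carrier gene Slc25a15 by -0.04. Arg2, the arginase of other tissues, differed by 0.65 (adjusted p = 0.0822), with control values of 5.16 and 5.17 below the olfactory receptor median.

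Transaminases and enzymes of serine, proline and ornithine had lower means in all 6 members, of which 1 fell. Prodh, the proline dehydrogenase of mitochondria, read 10.09 and 9.97 in controls and 9.51 and 9.10 in knockouts, and fell by 0.73 (SE 0.16, adjusted p = 0.0312). Got1, the cytosolic aspartate aminotransferase, had the largest difference of all members at -1.20, yet did not pass (SE 0.36, adjusted p = 0.0761). Its control arrays read 12.49 and 12.31, knockout 1 read 11.80 and knockout 2 read 10.61. Most of that difference therefore came from knockout 2.

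Agxt, which detoxifies glyoxylate with alanine as donor, showed the same uneven pattern, at 10.83 and 10.85 in controls, 10.61 in knockout 1 and 9.86 in knockout 2 (difference -0.61, adjusted p = 0.146). Gpt, alanine aminotransferase, differed by -0.36 (adjusted p = 0.197) and Sdsl, a relative of serine dehydratase, by -0.43 (adjusted p = 0.0648). Sds, the serine dehydratase itself, which neighbours Sdsl in the RefSeq gene order, fell by 1.10 (adjusted p = 0.027), from 10.57 and 10.53 to 9.81 and 9.09. Oat, the pericentral ornithine aminotransferase, differed by -0.03, with an interval of -0.35 to 0.29. Prodh2 fell by 0.62, and the liver asparaginase gene Aspg by 0.77 (adjusted p = 0.0167 and 0.01).

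In tyrosine breakdown no member fell. None of the 4 passed with limma, also at an unadjusted p under 0.05, and their differences were -0.04 for Tat, the aminotransferase of the entry step, -0.12 for the dioxygenase gene Hpd, -0.34 for Hgd, which opens the ring, and -0.27 for Fah, the last step. For Tat the 95% interval was -0.34 to 0.26. Both knockout arrays lay below both control arrays for Hgd, at 12.28 and 12.01 against 12.62 and 12.35, and for Fah, at 12.23 and 12.07 against 12.51 and 12.32. Of the 6 other genes of this route 1 fell, Pcbd1 (-0.42, adjusted p = 0.0419), which takes part in recycling tetrahydrobiopterin.

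RNA of genes for tryptophan breakdown through kynurenine was lower at several consecutive steps. Kmo, the mitochondrial outer membrane enzyme that hydroxylates kynurenine, read 10.77 and 10.89 in controls and 10.16 and 10.22 in knockouts. The spread was small in both groups, and Kmo fell by 0.64 (SE 0.11, adjusted p = 0.0149). Kynu, kynureninase, read 11.69 and 11.56 in controls and 11.04 and 10.77 in knockouts and fell by 0.72 (SE 0.13, adjusted p = 0.019). Haao, the next dioxygenase toward nicotinamide synthesis, differed by -0.32 (adjusted p = 0.159), and Tdo2, the hepatic dioxygenase that opens the route, by -0.15 (adjusted p = 0.45), with an interval of -0.42 to 0.13.

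Of 7 other tryptophan genes 5 fell, with a median difference of -1.16 over the 7. Ido2, a second tryptophan dioxygenase of liver, had the largest fall of the pathway genes examined at -1.68 (adjusted p = 0.00151), from 9.82 and 9.90 to 8.13 and 8.23. Afmid, the formamidase that follows the dioxygenases, fell by 1.17, and the kynurenine aminotransferase genes Kyat3, Aadat and Kyat1 fell by 1.20, 1.16 and 0.63. Adjusted p was 0.0147 for Afmid and 0.0367, 0.0378 and 0.0297 for those genes. The late genes Acmsd (-0.11) and Qprt (-0.23) did not pass.

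Of the 7 sulfur amino acid members 1 fell. Ahcy, which cleaves adenosylhomocysteine to homocysteine and adenosine, read 13.07 and 12.99 in controls and 12.48 and 12 in knockouts, and fell by 0.79 (SE 0.17, adjusted p = 0.0306). Its 3 probe sets gave -0.79, -0.82 and -0.80, although probe sets of near-identical copies may read the same RNA. The other 6 did not pass. Mat1a, the liver methionine adenosyltransferase, differed by -0.15, Gnmt, which methylates glycine, by -0.28, Cbs by -0.17 and Cth by 0.20, the last pair carrying homocysteine to cysteine.

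Bhmt, which remethylates homocysteine with betaine, differed by 0.05, with 0.06 and 0.09 at its other probe sets, and its paralog Bhmt2 by -0.12. Bhmt, Bhmt2 and Dmgdh, the dimethylglycine dehydrogenase, follow each other in the RefSeq gene order, and Dmgdh differed by -0.25 without passing. Of 12 other sulfur genes 4 fell, and their median over the 12 was 0.00. These were Sardh, the sarcosine dehydrogenase (-0.62), and 3 genes of hydrogen sulfide or sulfite oxidation and sulfur transfer, Mpst (-0.64), Sqor (-0.53) and Suox (-0.49).

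Branched-chain and propionate genes fell in 3 of 5 members, and both knockout arrays lay below both control arrays in all 5. Mut, the cobalamin-dependent methylmalonyl-CoA mutase that ends propionate breakdown, had the smallest p of the 38 genes. It read 10.46 and 10.52 in controls and 9.53 and 9.39 in knockouts, and fell by 1.03 (SE 0.11, adjusted p = 0.00439) to 49.0% of control. Dbt, the acyltransferase core of the branched-chain ketoacid dehydrogenase complex, read 10.53 and 10.47 against 9.82 and 9.74, and fell by 0.72 (SE 0.10, adjusted p = 0.01).

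Ivd, the isovaleryl-CoA dehydrogenase of leucine breakdown, read 10.09 and 10.23 in controls and 9.71 and 9.51 in knockouts, and fell by 0.55 (SE 0.12, adjusted p = 0.0333). The decarboxylase subunit genes of the same complex did not pass, with Bckdhb at -0.47 (adjusted p = 0.139) and Bckdha at -0.29 (adjusted p = 0.276). The interval of Bckdha was -0.66 to 0.09.

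Among 20 other genes of branched-chain, propionate and lysine breakdown 11 fell and 1 rose, with a median of -0.60. The riser was Bckdk, the kinase that inhibits the ketoacid dehydrogenase and a reported target of miR-122, which read 8.28 and 7.95 in controls and 8.83 and 8.93 in knockouts (0.77, adjusted p = 0.0192). Ppm1k, the phosphatase that acts against that kinase, fell by 0.91 (adjusted p = 0.0213), from 9.53 and 9.77 to 8.96 and 8.53. Hibch of valine breakdown fell by 0.91 and Acadsb of isoleucine breakdown by 0.84 (adjusted p = 0.00909 and 0.00654). Both propionyl-CoA carboxylase subunits, Pcca (-0.73) and Pccb (-0.74), fell, as did Mmaa (-0.65), which serves the cobalamin cofactor of the mutase. Mmaa was dim, at 6.60 and 6.57 in controls and, near the olfactory receptor median of 5.97, at 5.97 and 5.90 in knockouts. Mcee, between the carboxylase and the mutase, differed by -0.30 (adjusted p = 0.149). Mccc2 (-0.73), Dld (-0.63), Aldh6a1 (-0.57) and the lysine genes Gcdh (-0.56) and Aldh7a1 (-0.47) completed the falls.

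**Figure D3:**
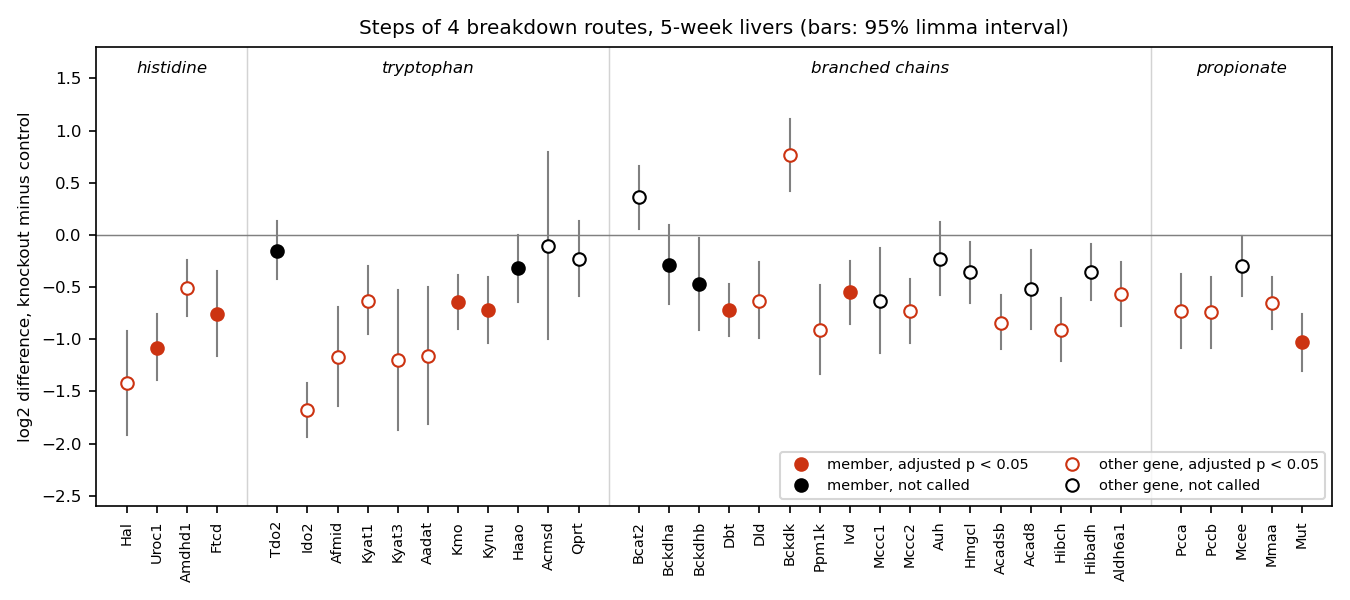
Log2 difference between knockout and control (y axis, with 95% limma intervals) for the steps of histidine, tryptophan, branched-chain and propionate breakdown, in approximate pathway order along the x axis. Filled points are members, open points other genes, and red marks an adjusted p under 0.05; all 4 histidine genes lie below 0, and Bckdk at 0.77 is the single called gene above 0.

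The genes of histidine breakdown fell at each of the 4 consecutive steps that were measured. Uroc1, urocanate hydratase, read 10.15 and 10.14 in controls and 9.21 and 8.93 in knockouts, and fell by 1.08 (SE 0.13, adjusted p = 0.00591) to 47.5% of control. Ftcd, which hands the formimino group of histidine to tetrahydrofolate, read 10.79 and 10.56 against 10.12 and 9.72, and fell by 0.76 (SE 0.17, adjusted p = 0.0318). The step before Uroc1 and the one after it belong to genes outside the 38. Hal, the histidine ammonia-lyase, fell by 1.42 (adjusted p = 0.00985), from 11.61 and 11.53 to 10.46 and 9.84, and Amdhd1, its neighbour in the RefSeq gene order, by 0.51 (adjusted p = 0.032).

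In glycine and one-carbon metabolism, Shmt1, the cytosolic enzyme that converts serine and glycine, read 9.80 and 9.83 in controls and 8.96 and 9.01 in knockouts. It fell by 0.83 (SE 0.10, adjusted p = 0.00641), with arrays of each group within 0.05 of each other. Gldc, the decarboxylase of the glycine cleavage system, read 10.67 and 10.18 against 9.81 and 9.35, and its difference of -0.85 (SE 0.22) stood at the threshold with an adjusted p of 0.0502. Across the alternatives that kept all arrays its adjusted p ran from 0.0337 to 0.227. Amt, the aminomethyltransferase of the same system, differed by -0.23 (adjusted p = 0.197), and the mitochondrial serine hydroxymethyltransferase gene Shmt2 by -0.45 (adjusted p = 0.17). Gcat of threonine breakdown fell by 0.52 (adjusted p = 0.0335).

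Over all 68 measured genes of the other lists, 28 fell and 1 rose, with a median difference of -0.38, where 4.15% and 10.8% of all genes were called in those directions. Among 10 regulators of amino acid catabolism none passed with limma, and 2 had an unadjusted p under 0.05. Klf15, a Kruppel-like factor known to drive amino acid breakdown in fasting, differed by -0.40 (adjusted p = 0.0954), and the glucagon receptor gene Gcgr by -0.37 (adjusted p = 0.0997). Cebpa differed by -0.34 (adjusted p = 0.198) and Hnf4a by 0.05.

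Among the members the difference varied with the brightness of the probe set. Spearman rho of control mean and difference was 0.46 over the members, but -0.19 over all genes. Of 14 members with a control mean of at least 12 on the log2 scale, only Ahcy fell and the median difference was -0.14, although Got1, also in this group, had the largest difference of the 38. Of 24 dimmer members 11 fell and the median was -0.58. Of all 215 genes with a control mean of at least 12, 6.05% were called lower, against 10.1% of the 2182 genes between 9 and 12. Whether bright probe sets understate differences was not tested.

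The members also set both knockout arrays apart from each other. Knockout 2 read below knockout 1 in 33 of 38 members, with a median gap of -0.23, whereas over all genes this held for 49.2% with a median gap of 0.00. Control 2 read below control 1 in 26 of 38 members, with a median gap of -0.12, against 54.1% of all genes and a gap of -0.03. The median gap between the knockout arrays was 0.00 over hepatocyte markers and -0.27 over both the Kupffer cell and macrophage markers (12 of 13 lower in knockout 2) and the lymphocyte markers (5 of 6), and the part of those cells in the members' gap was not tested. The exceptions, in which knockout 2 was not lower, were Nags, Glud1, Kmo, Amt and Shmt1.

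**Figure D4:**
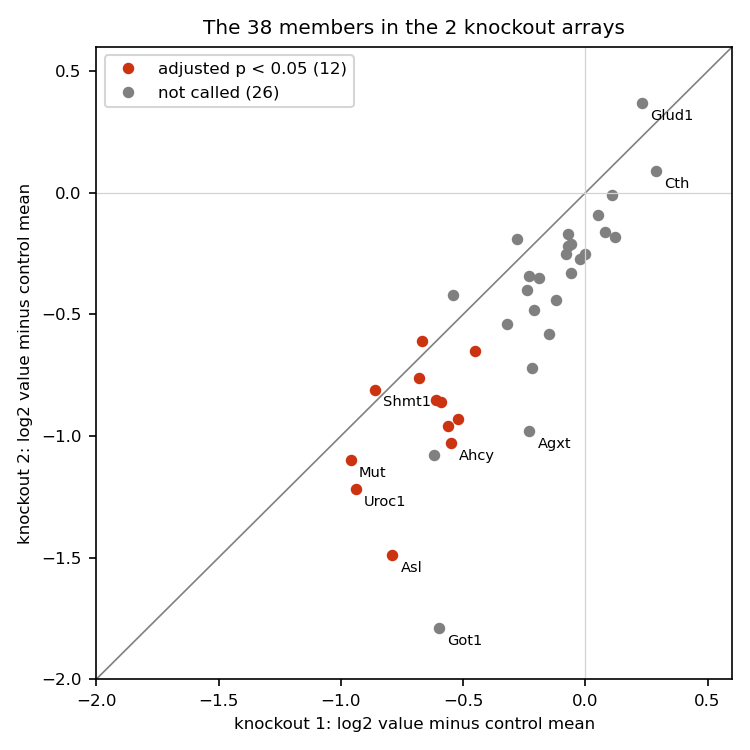
Each point is one of the 38 genes, placed by its log2 value minus the control mean in knockout 1 (x axis) and in knockout 2 (y axis), with the diagonal of equal values. Red points are the 12 genes that fell; 33 points lie below the diagonal, with Got1 and Agxt among the farthest from it.

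Promoter sequences from RefSeq (GRCm38.p6, 250 bases before to 50 after the start) were found by symbol for 28 members, 8 of them among those that fell. The letters TTGNNCAA, a loose pattern for the C/EBP family with free middle bases, were searched on both strands. A match need not be a C/EBP core. Also searched were TATAAA, the NF-Y letters CCAAT, the HNF4 motif CAAAGTCCA, and the HNF1 and glucocorticoid receptor motifs. TTGNNCAA occurred in 4 of 28 member promoters (Bhmt, Hgd, Ivd and Kmo) and in 6.47% of 27025 promoters of the same length. TATAAA occurred in 3 of 28 (Ftcd, Hgd and Tdo2) and in 14.2% of all, while HNF4 and HNF1 letters occurred in none of the 28 and in 0.477% and 0.437% of all. The NF-Y letters occurred in 15 of 28 and in 37.9% of all, and the glucocorticoid receptor motif in 1 of 28 (Gnmt) and in 0.463% of all. The 4 sequences below are shown because they hold TTGNNCAA or TATAAA in Kmo, Ivd and Ftcd, which fell, and in Hgd, which did not pass. Bhmt and Tdo2 also hold such letters, did not pass and are not shown. Capitals mark TTGNNCAA and TATAAA on either strand, where a TATAAA on the reverse strand reads TTTATA. A match is a description of the letters and not of a bound site. The windows are chr1:175631943-175632242, plus strand (Kmo), chr2:118861744-118862043, plus strand (Ivd), chr10:76575398-76575697, plus strand (Ftcd), and chr16:37579903-37580202, plus strand (Hgd).
Kmo: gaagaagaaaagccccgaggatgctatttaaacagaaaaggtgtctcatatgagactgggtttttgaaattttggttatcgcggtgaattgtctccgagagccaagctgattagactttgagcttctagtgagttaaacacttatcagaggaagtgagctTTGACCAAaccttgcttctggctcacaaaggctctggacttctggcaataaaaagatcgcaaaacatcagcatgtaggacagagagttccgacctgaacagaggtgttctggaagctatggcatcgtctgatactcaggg
Ivd: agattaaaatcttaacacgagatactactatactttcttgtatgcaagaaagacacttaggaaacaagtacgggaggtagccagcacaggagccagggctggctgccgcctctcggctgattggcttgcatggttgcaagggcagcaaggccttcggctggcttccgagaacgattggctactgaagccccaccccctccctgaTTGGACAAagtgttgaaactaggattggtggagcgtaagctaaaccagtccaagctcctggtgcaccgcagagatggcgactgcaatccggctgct
Ftcd: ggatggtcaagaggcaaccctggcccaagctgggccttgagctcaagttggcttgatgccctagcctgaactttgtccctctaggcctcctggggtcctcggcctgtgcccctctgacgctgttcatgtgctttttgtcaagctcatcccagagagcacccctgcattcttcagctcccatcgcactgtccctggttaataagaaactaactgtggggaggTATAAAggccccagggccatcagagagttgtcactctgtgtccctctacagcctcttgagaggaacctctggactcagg
Hgd: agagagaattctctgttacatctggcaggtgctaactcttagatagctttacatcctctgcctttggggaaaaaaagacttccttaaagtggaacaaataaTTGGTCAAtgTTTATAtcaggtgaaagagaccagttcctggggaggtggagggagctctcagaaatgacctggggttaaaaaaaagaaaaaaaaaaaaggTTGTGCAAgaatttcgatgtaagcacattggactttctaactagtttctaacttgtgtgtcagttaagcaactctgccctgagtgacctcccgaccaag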

How the data were processed

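Total liver RNA of 2 control and 2 knockout samples at 5 weeks was measured on Affymetrix arrays. Per the submitters' processing notes, the authors used RMA in Affymetrix Expression Console. The deposited array values are on a log2 scale, rounded to 2 decimals, for 35556 probe sets. The authors' deposited 5-week results table gives group means, a fold change and a p-value for 14996 of these probe sets, and the rule by which those rows were selected was not stated. Group means of the array values matched the table's log2 means within 0.005. Genome build and array annotation were not stated either. Arrays have no read depth, so the number of arrays limits the precision.

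Probe sets were named through RefSeq by accession (13011), symbol (1031) or synonym (485), 381 kept the table's name, and 88 with several or no symbols were left out. For each of 12871 genes the probe set with the highest mean over the 4 arrays was used. limma 3.58.1 in R 4.3.3 (lmFit, eBayes, 2 residual degrees of freedom) was fitted to the 5-week groups, two-sided, and was first tested on simulated data. An exact permutation test of 2 against 2 could not go below p = 0.333 and was not used. All members are accounted for, with array values for those that passed and for the urea cycle. Among other genes the rule named those past the threshold or with the largest differences, and others named here were chosen after their values were seen. The members and lists were chosen with earlier results of these data known. Over all genes, same-numbered samples did not deviate together (correlation 0.04), so the fit has no replicate block. Among the 38 members, however, sample 2 read below sample 1 in 26 for the controls and in 33 for the knockouts. The planned fit at 8 weeks was not run, and 4 single-array columns that match no sample label were not used.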

Additional observations from a re-analysis of the deposited data

How the results depend on the processing

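No member rose in any fit that was run, and the members' median stayed below 0. The members called lower numbered 13 after a further quantile normalization, with only genes above the olfactory receptor median, and with an intensity trend, and 12 with the mean of all probe sets, the authors' deposited p-values, or a robust prior. In the same order, 760, 546, 560, 529, 476 and 604 of all genes were called lower, against 534 in the reported fit. All 12871 genes were tested, or 12138 with the olfactory receptor filter. The robust prior's 12 share 11 with the reported ones: Asl was lost (adjusted p = 0.0586) and Gldc gained (0.0386). Same-numbered samples share only a number, and with the replicate block 10 members and 837 of all genes were called, against 12 and 1928. Of all genes 186 were called lower with the block, against 534. Of the 10, 9 are shared: Prodh (adjusted p = 0.0546), Ahcy (0.0585) and Ivd (0.0922) were lost and Gldc (0.0337) gained. Entering all 35556 probe sets gave 0 members and 0 of all probe sets (limma). With 1 array left out, limma kept none of the calls. With a robust prior it called 5, 5, 2 and 0 members and 1038, 1166, 225 and 212 genes without control 1, control 2, knockout 1 and knockout 2, where 1 residual degree of freedom was left. The robust prior and all probe sets were chosen after seeing the data. Only uncalled members changed sign, each without 1 array and alike with the robust prior. The differences over those fits ran from -0.12 to 0.09 for Ass1 (above 0 without control 1 and, at 0.06, without knockout 2), from -0.27 to 0.03 for Hpd (also 0.01 without knockout 2), from -0.35 to 0.11 for Bhmt2, from -0.08 to 0.18 for Bhmt (also -0.01 without knockout 1), from -0.18 to 0.12 for Oat and from -0.16 to 0.08 for Tat. Using only the authors' rows equals the reported fit by construction, and the alternatives at 8 weeks were not run. The cause of these changes was not tested.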
